A study of Homo sapiens with 95 samples.

Results

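UGDH, UGT1A6, EPHX1, POR, CBR1, CBR3, ABCC1, ABCC3 and ABCC4 were examined as genes of conjugation, epoxide and carbonyl metabolism, electron transfer and efflux. They were chosen by name, as 9 of the 23895 gene symbols listed for every well, and all 9 were present in every well's table. The measurement was 3′ digital gene expression (3′DGE), in which each captured polyadenylated RNA carries a well barcode and a unique molecular identifier (UMI) and only its 3′ end is read. AALE cells, a line of immortalized epithelial cells from human bronchus, were grown to confluency in 24-well plates. Wells received the DMSO vehicle, NNK, a tobacco nitrosamine, at 490 µM, BaP (benzo[a]pyrene) at 173 µM, or CSC (cigarette smoke condensate) at 24 µg/ml. The length of exposure is not given in the sources used here. Constructs for overexpression held PIK3CA, FGFR1, NRG1 or NRF2, whose gene symbol is NFE2L2, and the cells with an empty vector carrying the HcRed reporter were their control. CRISPR knockouts targeted FAT1 or CDKN2A, and the cells that received the Cas9 and EGFP plasmid without a guide (GFP) were their control. The labels name no clone for any population.

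Foreign lipophilic compounds are usually made water-soluble in steps. Cytochrome P450 enzymes, which draw electrons from the reductase POR, introduce oxygen, and the epoxides and carbonyls that arise are hydrolysed by EPHX1 or reduced by carbonyl reductases such as CBR1 and CBR3. UGDH makes the UDP-glucuronic acid that glucuronosyltransferases such as UGT1A6 attach to their substrates, and the ABCC transporters carry such conjugates and glutathione conjugates out of the cell. The aryl hydrocarbon receptor and NRF2 are the best known regulators of these genes, through xenobiotic and antioxidant response elements in DNA, and CBR1 also reduces NNK itself to its alcohol.

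The wells used here were the 82 with 1-digit replicate numbers, and 25 of their 31 groups held 3 wells. Their total counts ran from 692446 to 1895735, with a mean of 1283217, so that 1 UMI was worth 0.779 CPM (the count divided by the well's total and multiplied by 1000000) at the mean depth. The mean total was largest under DMSO, 1427513 in 24 wells, and smaller under CSC (1290086, 17 wells), BaP (1213795, 19 wells) or NNK (1180450, 22 wells). The plate positions given for the samples, rows A to H and columns 1 to 12, are not those of a 24-well culture plate. Positions on the culture plates are not given in the sources used here. Each row of the given positions held a single chemical, so that chemical and plate row cannot be told apart. HcRed, GFP, FGFR1 and PIK3CA cells shared the same rows, and NRF2, NRG1, FAT1 and CDKN2A cells the others. HcRed and NRF2 cells lay in the same columns and differed in row, FGFR1, PIK3CA and GFP cells differed from HcRed cells in column, and NRG1 cells from HcRed, like FAT1 and CDKN2A cells from GFP, differed in both, and these positions cannot be told apart from the constructs. Of the markers of basal airway epithelium 8 of 8 averaged at least 1 CPM, and their summed level ran from 340.0 to 988 CPM. The summed markers of ciliated or secretory cells, endothelium, leukocytes and fibroblasts reached at most 0.773, 5.42, 8.52 and 15.8 CPM, and FOXJ1, SCGB3A1, MUC5B, CD3E, VWF and CDH5 were at 0. Under DMSO the 4 overexpressed genes were higher than in every HcRed well, and FAT1 and CDKN2A transcripts were lower than in every GFP well, although a 3′ tag need not fall in the edited part of a gene. The NRG1 well under NNK numbered 2 stood apart: its counts differed from those of its 2 partners by a chi-square of 11.3 and 11.8 per degree of freedom, against 1.13 to 2.89 in the other 74 pairs of partners. Results that include this well are given with and without it where they move.

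On the hg19 assembly, which the counts were made on, the members lay on separate chromosomes except for the 2 carbonyl reductases. By GENCODE annotation these were CBR1 at chr21:37442239-37445464 and CBR3 at chr21:37507377-37518860, both on the plus strand with 3 exons each. Each was overlapped by an antisense gene, and CBR1 also by the protein-coding gene SETD4. UGDH lay at chr4:39500375-39529931 on the minus strand, overlapped by UGDH-AS1. UGT1A6 at chr2:234600253-234681946 shares its region with 8 other UGT1A genes. EPHX1 lay at chr1:225997826-226033264 and POR at chr7:75528518-75616173, overlapped by the protein-coding genes TMEM63A and TMEM120A in that order. The transporter genes lay at chr16:16042995-16237114 (ABCC1), chr17:48712138-48769614 (ABCC3) and chr13:95672089-95953729 (ABCC4, minus strand).

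Since only 3′ ends were read, the last 500 bases of each member's main transcript were compared with all other transcripts in windows of 46 bases, the length of the sequenced read. For UGT1A6 455 of 455 windows also occurred in 8 other genes, all of them UGT1A genes that share its last exons. A read from these bases therefore cannot be assigned to UGT1A6 by sequence. The paper describes the counted 3′DGE reads as UMIs that matched a single gene. Reads from this shared end may therefore be missing from the UGT1A6 count, which was not tested. The other UGT1A genes together held 1 UMI, in UGT1A1. For the 8 other members 0 of 455 windows were shared, CBR1 and CBR3 included. Whether counting used the strand is not given in the sources used here, and reads from a member and its antisense partner may then not be separable. Over the 82 wells CBR3-AS1 held 139 UMIs, beside 300 for CBR3.

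Promoter sequences were read to show which response elements lie close to the members' starts. RefSeq promoter windows of the 250 bases before a gene's start (GRCh38.p14) were held for EPHX1, UGT1A6, UGDH, ABCC4 and CBR1, and POR, CBR3, ABCC1 and ABCC3 were not matched. The core of the antioxidant response element, TGACNNNGC on either strand, was found in 10.9% of all 35116 promoter windows and in 4 of the 8 windows of these 5 members, 1 each of EPHX1, UGT1A6, ABCC4 and CBR1. The xenobiotic response element, searched as TNGCGTG on either strand, was found in 4.52% of all windows and in 1 of these 8, a window of UGT1A6. The motifs do not overlap in any member's window. The window of CBR1, the member with the highest counts and the one that passed the test under a chemical, and the window of UGT1A6 with its xenobiotic element are shown, with the matched letters in capitals. The CBR1 window is chr21:36069774-36070023 on the plus strand and its match, GCAAAGTCA, reads as the motif on the opposite strand and begins at position -159 from the start. The UGT1A6 window is chr2:233691452-233691701 on the plus strand and its match, TCGCGTG, begins at position -202.
CBR1: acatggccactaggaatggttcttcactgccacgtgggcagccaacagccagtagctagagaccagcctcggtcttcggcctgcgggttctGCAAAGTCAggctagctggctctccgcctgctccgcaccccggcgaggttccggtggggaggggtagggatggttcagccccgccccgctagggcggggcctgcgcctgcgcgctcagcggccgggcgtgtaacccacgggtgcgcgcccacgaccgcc
UGT1A6: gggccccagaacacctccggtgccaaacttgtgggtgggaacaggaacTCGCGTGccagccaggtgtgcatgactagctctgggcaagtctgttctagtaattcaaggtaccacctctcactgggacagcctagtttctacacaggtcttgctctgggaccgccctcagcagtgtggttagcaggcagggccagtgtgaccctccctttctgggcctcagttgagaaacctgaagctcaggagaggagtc
Such matches describe letters in a window and were not tested as binding sites.

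The members differed widely in how many UMIs stood behind them, which sets what each could show. Over the 82 wells CBR1 had 15082 UMIs, UGDH 1133, POR 641, CBR3 300, ABCC1 272, ABCC4 270, ABCC3 256 and EPHX1 103. UGT1A6 had 27 UMIs, with at least 1 UMI in 22 wells and none in 60, and did not pass the filter on low counts (a mean count above 1 in the wells compared) in any comparison. EPHX1 was at 0 in 25 wells and passed the filter in most but not all comparisons. The other 7 members passed it in every comparison.

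CBR1, a cytosolic reductase of quinones, prostaglandins and xenobiotic carbonyls, rose under NNK, and it was the only member that passed the test for a chemical against DMSO. Among the 21 wells under each condition in the 7 populations with 3 wells of both, CBR1 ran from 79.9 to 182 CPM under DMSO (median 133) and from 100.5 to 216 CPM under NNK (median 157). The mean was 134 CPM (SD 23.3) under DMSO and 159 CPM (SD 28.3) under NNK, a ratio of 1.19. The ranges overlap when populations are pooled, but the mean was higher under NNK in 7 of 7 populations. With population as a covariate the log2 fold change was 0.30 (SE 0.064, 95% interval 0.17 to 0.43, limma-voom adjusted p = 0.000725). In bulk wells more cells with the transcript and more transcript per cell cannot be told apart. In this comparison 1 of 8 tested members was called, and 7.22% of all 11349 genes tested were called.

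Within populations, NRF2 cells had CBR1 at 182, 153 and 141 CPM under DMSO and at 216, 197 and 200.3 CPM under NNK. GFP cells had 118, 147 and 133 CPM under DMSO and 152, 192 and 183 CPM under NNK. FGFR1 cells had 127, 108 and 96.9 CPM under DMSO and 174, 128 and 137 CPM under NNK. In these 3 populations, and in FAT1 and NRG1 cells, every NNK well lay above every DMSO well, narrowly so in FGFR1, FAT1 and NRG1 cells. The separation is in CPM and counts the NRG1 well that stood apart. The fitted value given below for NRG1 cells shows no clear rise while that well is included. A separation of this kind in at least 5 of the 7 populations was seen in 0.696% of all genes tested. HcRed cells had 135, 170 and 143 CPM under DMSO and 140, 174 and 156 CPM under NNK, and there, as in PIK3CA cells, the wells overlapped.

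Fitted population by population, the log2 fold change of CBR1 under NNK was 0.50 in FGFR1 cells (95% interval 0.16 to 0.84), 0.47 in GFP cells (0.14 to 0.80) and 0.44 in NRF2 cells (0.13 to 0.76). It was 0.31 in FAT1 cells (-0.01 to 0.63), 0.19 in HcRed cells (-0.15 to 0.52) and 0.16 in PIK3CA cells (-0.18 to 0.51). None of these passed the threshold on its own, and in NRF2, FGFR1 and GFP cells the unadjusted p was under 0.05, with limma-voom adjusted p from 0.282 to 0.985 over the 7 populations, where 0.132% to 0.634% of all genes were called. In NRG1 cells the value was 0.01 (-0.31 to 0.34), and without the well that stood apart 0.30 (0.03 to 0.58). Without that well the values in NRF2 and FGFR1 cells were 0.45 and 0.50 and passed (limma-voom adjusted p = 0.0345 and 0.0409). The other members also passed in no single population under NNK. There ABCC1 in HcRed cells (-1.52, -2.94 to -0.10, limma-voom adjusted p = 0.531) and EPHX1 in NRF2 cells, where its DMSO wells held no UMI, had an unadjusted p under 0.05. A difference of the response between populations was not shown for CBR1 (F = 1.23, limma-voom adjusted p = 0.828), and 0 of 8 members were called in that test, where 0.0176% of all genes were called.

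**Figure D1:**
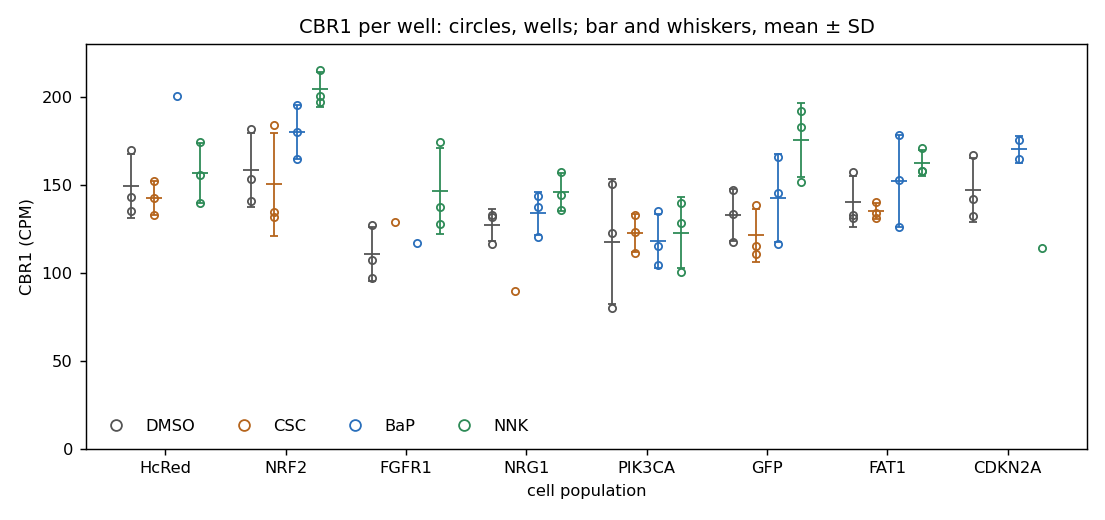
CBR1 in CPM (vertical axis, from 0) in each of the 82 wells, by cell population (horizontal axis) and chemical (colour); circles are wells, and bars with whiskers are the mean and SD where a group has more than 1 well. The NNK wells of NRF2 cells, at 197 to 216 CPM, lie above that population's DMSO wells, and the PIK3CA wells overlap under all chemicals.

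The UMI sum of CBR1 was 3939 in the DMSO wells and 4032 in the NNK wells of that comparison, so that the rise is one relative to the well totals, which were smaller under NNK. The part of library size in this result was not tested. Over the 18 alternatives tried the log2 fold change ran from 0.27 to 0.35 and passed the threshold in all 18 (adjusted p from 8.42e-08 to 0.023).

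Under CSC no member passed the test. CBR1 averaged 140.0 CPM (SD 23.8, 15 wells) under DMSO and 134 CPM (SD 18.0, 15 wells) under CSC, a log2 fold change of -0.04 (95% interval -0.16 to 0.07). Its mean was higher under CSC in 1 of 5 populations. By limma-voom 0 of 8 tested members were called and 0 had an unadjusted p under 0.05, where 5.81% of all 11371 genes were called, and edgeR called 0 of 8 and DESeq2 0 of the 5 to which it gave an adjusted p. For CBR1 the interval leaves out changes of more than 0.16 on the log2 scale in either direction.

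Under BaP CBR1 had a fitted value above 0 that did not pass. The reductase averaged 135 CPM (SD 22.9, 15 wells) under DMSO and 145 CPM (SD 27.0, 15 wells) under BaP, with a higher mean in 5 of 5 populations, and in each of them the wells overlapped. The log2 fold change was 0.15 (95% interval 0.03 to 0.26, limma-voom adjusted p = 0.105). By limma-voom 0 of 8 tested members were called and 1, CBR1, had an unadjusted p under 0.05, where 9.16% of all 11306 genes were called. The edgeR quasi-likelihood test called CBR1 (adjusted p = 0.0448) and DESeq2 did not (adjusted p = 0.0855). Over 15 alternatives the adjusted p ran from 0.00246, with the wells of 2-digit replicate numbers added, to 0.509, without the wells numbered 2.

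The chemicals were also compared directly over the populations with 3 wells of both. CBR1 was lower under CSC than under NNK by a log2 difference of -0.38 (95% interval -0.49 to -0.26, limma-voom adjusted p = 4.43e-07), and it passed in all 14 alternatives. It was the only one of 8 tested members called, where 12.3% of all genes were called. Between CSC and BaP the difference was -0.21 (-0.34 to -0.08, limma-voom adjusted p = 0.0392), again 1 of 8 members, where 4.58% of all genes were called. That call was lost in 8 of 13 alternatives, among them each fit without the wells of 1 replicate number (adjusted p = 0.155, 0.085 and 0.115 without numbers 1, 2 and 3) and without NRF2 cells (-0.16, adjusted p = 0.296). Between BaP and NNK 0 of 8 members were called by limma-voom, by edgeR or, of the 1 member with an adjusted p, by DESeq2, 1 had an unadjusted p under 0.05, and 0.996% of all genes were called. There CBR1 differed by -0.16 (-0.30 to -0.02, limma-voom adjusted p = 0.446), and by -0.22 without the NRG1 well that stood apart (adjusted p = 0.00332), and over 15 alternatives the adjusted p ran from 0.00332 to 0.956. Each chemical was given at its own single dose, and these comparisons are between those doses.

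CBR3, a close paralog of CBR1 with a narrower set of substrates, was at a few UMIs a well. It averaged 3.0 CPM (SD 1.62) in the 21 DMSO wells and 3.01 CPM (SD 1.33) in the 21 NNK wells, and its log2 fold change was 0.25 (95% interval -0.22 to 0.72). Under CSC it was 0.08 (-0.48 to 0.64) and under BaP 0.09 (-0.59 to 0.77). These intervals hold the value of CBR1 under NNK as well as 0, so that the 2 reductases could not be told apart there.

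UGDH, the enzyme that supplies UDP-glucuronic acid, ran from 5.40 to 16.8 CPM under DMSO and from 2.89 to 22.4 CPM under NNK in the same populations. The highest NNK value was that of the NRG1 well that stood apart, and the next was 14 CPM. Its log2 fold change was -0.07 (95% interval -0.33 to 0.18) under NNK, or -0.12 (-0.37 to 0.14) without that well, -0.02 (-0.33 to 0.29) under CSC and -0.13 (-0.41 to 0.15) under BaP. None of these values passed the test, and the ranges over all populations overlapped under each chemical. Within populations every NNK well lay below every DMSO well in 2 of 7, FGFR1 cells (10.6, 9.41 and 2.89 CPM against 12.5, 13.97 and 14.9) and GFP cells (7.34, 7.82 and 9.71 CPM against 14.3, 10.8 and 10.3), as did 11.1% and 9.58% of all genes in these cells. Under BaP this was seen in 1 of 5, GFP cells, as for 10.6% of all genes there. POR, which passes electrons to the cytochromes P450, had values of 0.18 (-0.13 to 0.49) under NNK, 0.14 (-0.23 to 0.51) under CSC and 0.20 (-0.17 to 0.58) under BaP. A doubling of UGDH or POR lies outside all of these intervals. In PIK3CA cells every POR well under CSC (7.01 to 10.2 CPM) and under BaP (6.1 to 8.59 CPM) lay above every DMSO well (3.98 to 5.37 CPM). So did 6.34% and 6.9% of all genes in these cells. In the other populations compared, and under NNK, the POR wells overlapped those under DMSO.

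UGT1A6, a glucuronosyltransferase of small phenols, was too sparse for a test. Over all wells of a chemical it had 10 UMIs under DMSO, which is 0.292 CPM (exact Poisson 95% interval 0.14 to 0.537), 6 under CSC (0.274 CPM, 0.10 to 0.595), 8 under BaP (0.347 CPM, 0.15 to 0.684) and 3 under NNK (0.116 CPM, 0.0238 to 0.338). The intervals overlap and cover counting error only. EPHX1, the microsomal epoxide hydrolase that acts on epoxides of BaP, had 31 UMIs under DMSO (0.905 CPM, 0.615 to 1.28), 22 under CSC (1.0 CPM, 0.629 to 1.52), 24 under BaP (1.04 CPM, 0.667 to 1.55) and 26 under NNK (1.0 CPM, 0.654 to 1.47). Its fitted log2 fold changes were 0.44 (-0.31 to 1.19) under CSC, 0.35 (-0.41 to 1.12) under BaP and 0.25 (-0.37 to 0.87) under NNK.

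By single populations 0 of 8 members were called by limma-voom in each response to CSC, where 0.783% of all genes were called in HcRed cells, 1.17% in NRF2, 1.18% in PIK3CA, 0.528% in GFP and 0.712% in FAT1 cells. For BaP 0 of 8 were called as well, where 1.52% of all genes were called in NRF2 cells, 1.06% in NRG1, 1.05% in PIK3CA, 1.19% in GFP and 1.95% in FAT1 cells. An unadjusted p under 0.05 was found for EPHX1 in NRF2 cells under CSC and BaP, where its DMSO wells held no UMI, and for ABCC3 in FAT1 cells under CSC. A difference between populations was called for 0 of 8 members under either chemical, where 0.106% of all genes were called for CSC and 0.106% for BaP, and its unadjusted p was under 0.05 for ABCC3 under CSC alone. These fits had no edgeR or DESeq2 counterpart.

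The efflux transporters did not pass the test under any chemical. ABCC4, an exporter of cyclic nucleotides and conjugates, had the lowest fitted values among the members: -0.48 (95% interval -0.98 to 0.02, limma-voom adjusted p = 0.276) under NNK, -0.42 (-1.0 to 0.16) under BaP and -0.14 (-0.73 to 0.45) under CSC. In the wells compared it ran from 0 to 9.94 CPM under DMSO (median 2.93) and from 0 to 6.10 CPM under NNK (median 1.97), so that the groups overlapped. Without the NRG1 well that stood apart the NNK value was -0.57 (-1.07 to -0.07, adjusted p = 0.104). ABCC1, an exporter of glutathione and glutathione conjugates, was at -0.13 (-0.64 to 0.37) under NNK, and ABCC3, an exporter of glucuronides, at -0.22 (-0.80 to 0.36). Both had their highest level of all 82 wells in the NRG1 well that stood apart, with 20 UMIs (13.6 CPM) for ABCC1 and 19 UMIs (12.9 CPM) for ABCC3, and without it the values were -0.32 (-0.82 to 0.19) and -0.39 (-0.98 to 0.20).

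**Figure D2:**
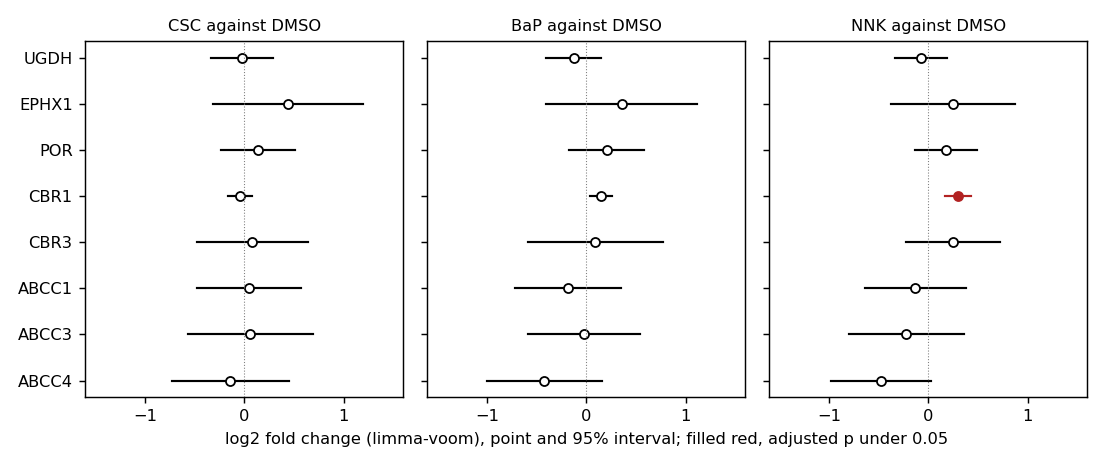
Log2 fold change against DMSO (horizontal axis) of the 8 tested members for CSC, BaP and NNK, as fitted across populations; points are estimates, lines 95% intervals, and filled red marks an adjusted p under 0.05. CBR1 under NNK, at 0.30, is the only filled point, and CBR1 has the shortest interval in each panel.

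The fitted values of the 8 tested members lay on both sides of 0, with 5 above and 3 below under CSC and 4 and 4 under BaP and under NNK. Their median log2 fold change was 0.05 under CSC, 0.03 under BaP and 0.05 under NNK, beside -0.0007, 0.01 and -0.01 over all genes tested. In the same fits 7 of 7, 6 of 7 and 4 of 7 tested genes of a list of exposure markers were called, all of them higher. CYP1A1, the P450 that oxidises BaP, was higher by 2.18 (SE 0.212) under NNK, 4.54 (SE 0.285) under BaP and 4.29 (SE 0.27) under CSC on the log2 scale. In the same order CYP1B1 was higher by 1.54, 3.42 and 3.65, and NQO1, a quinone reductase, by 0.28, 0.87 and 1.27, so that CBR1 and NQO1 had values of like size under NNK.

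Other genes of the same steps were listed by function. Under CSC 3 of 14 tested carbonyl and epoxide enzymes were called higher, 1 of 13 conjugating enzymes lower, and 0 of 10 electron transfer genes and 0 of 6 efflux genes, where 5.81% of all genes were called. The 4 genes called, of the lists together, were SULT1E1, an oestrogen sulfotransferase (-0.98, SE 0.159), the retinal reductase DHRS3 (0.81, SE 0.103), the prostaglandin reductase PTGR1 (0.47, SE 0.0375) and DHRS7 (0.27, SE 0.0569). Under BaP the counts called, all higher, were 3 of 14, 1 of 11, 1 of 10 and 0 of 6, namely DHRS3 (1.17, SE 0.0952), the N-acetyltransferase NAT1 (0.38, SE 0.122), PTGR1 (0.37, SE 0.034), DHRS7 (0.20, SE 0.0572) and the cytochrome b5 CYB5B (0.14, SE 0.0321), where 9.16% of all genes were called. Under NNK they were 2 of 14, 1 of 13, 1 of 10 and 0 of 6, all higher, where 7.22% of all genes were called. The efflux list, which holds other multidrug transporters and not the members, had no gene called under any chemical, and 7 of its 13 genes did not pass the filter on low counts.

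**Figure D3:**
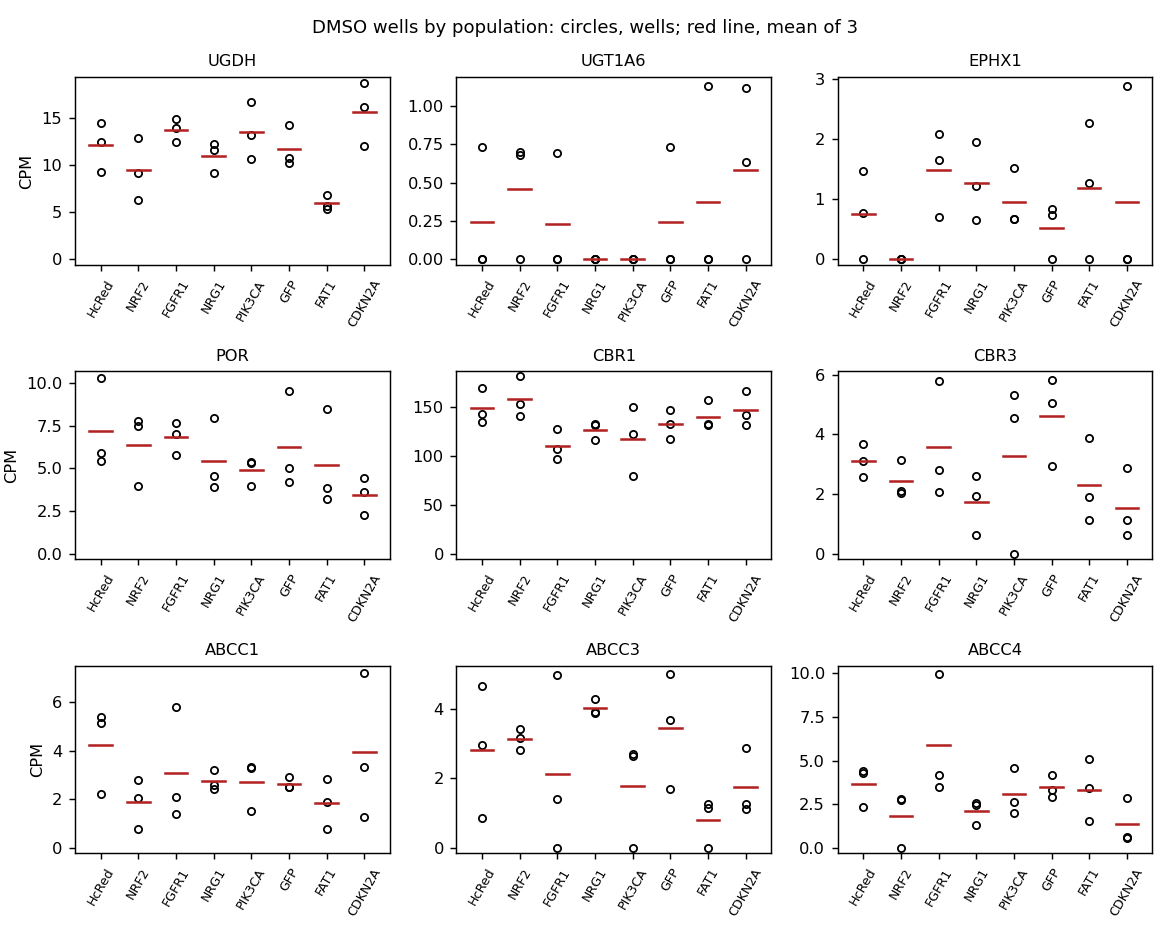
Level in CPM (vertical axis, a separate scale for each gene) of the 9 members in the DMSO wells of the 8 populations; circles are wells and red lines the means of 3 wells. UGDH is low in all FAT1 wells, at 5.40 to 6.80 CPM, and many wells of UGT1A6 lie at 0.

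Under DMSO the 8 populations differed in CBR1 and ABCC3 by a test over all of them. The F was 4.47 for CBR1 (limma-voom adjusted p = 0.000838) and 2.60 for ABCC3 (adjusted p = 0.0402), so that 2 of 8 tested members were called, where 39.6% of all 11595 genes were called. CBR1 passed in all 6 alternatives, with F from 3.40 to 4.83. ABCC3 was lost without the low-count filter (adjusted p = 0.118) and without the wells numbered 1, 2 or 3 (adjusted p = 0.119, 0.0876 and 0.185). ABCC4 (F = 2.43, adjusted p = 0.0561) and UGDH (F = 2.23, adjusted p = 0.0812) had an unadjusted p under 0.05.

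Ordered by its mean, CBR1 was at 159 CPM in NRF2 cells (SD 21), 149 in HcRed (SD 18.2), 147 in CDKN2A (SD 18.0), 140.0 in FAT1 (SD 14.7), 133 in GFP (SD 14.8), 127 in NRG1 (SD 9.14), 118 in PIK3CA (SD 35.5) and 111 in FGFR1 cells (SD 15.5, n = 3 wells each). The wells of each population overlapped those of its neighbour in this order. ABCC3 was at 3.88, 3.89 and 4.26 CPM in NRG1 cells and at 1.27, 1.13 and 0 CPM in FAT1 cells, the ends of its order. Its other populations lay between these means with wide overlap, and their wells held 0 to 6 UMIs each.

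The constructs were then compared with their controls under DMSO. With NRF2 overexpressed, CBR1 had a log2 fold change of 0.16 against HcRed (95% interval -0.03 to 0.36, limma-voom adjusted p = 0.457), and 0 of 7 tested members were called, with 0 at an unadjusted p under 0.05, 0 by edgeR and 0 of 1 by DESeq2, where 4.91% of all genes were called. Over the DMSO, CSC and NNK wells together the CBR1 value was 0.23 (limma-voom adjusted p = 0.0155). BaP was left out there, since HcRed cells held only 1 of the BaP wells used. Against GFP in place of HcRed the CBR1 value under DMSO was 0.29 (limma-voom adjusted p = 0.0445), and over 14 alternatives the adjusted p ran from 0.0155 to 0.844. ABCC4 was at 0, 2.72 and 2.82 CPM in NRF2 cells and 4.28, 4.41 and 2.32 CPM in HcRed cells, a value of -1.16 (-2.53 to 0.21), with overlap. EPHX1 had 0 UMIs in the 3 NRF2 wells under DMSO, where 3 UMIs over the pooled total would be 0.721 CPM, and 3 UMIs in the 3 HcRed wells. The 3 NRF2 wells under BaP held 6 EPHX1 UMIs, and the 3 under NNK and the 3 under CSC held 4 each.

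NRF2 and HcRed cells were compared under CSC as well. By limma-voom 0 of 8 tested members were called, with 0 at an unadjusted p under 0.05, 0 by edgeR and 0 of 1 by DESeq2, where 2.88% of all genes were called. CBR1 was at 184, 132 and 135 CPM in NRF2 cells and 133, 152 and 143 CPM in HcRed cells, a value of 0.06 (-0.17 to 0.29). The response to CSC did not differ between these populations for any of 7 members tested by limma-voom, where 0.231% of all genes were called. The difference for ABCC1 was 1.64 (-0.04 to 3.33, adjusted p = 0.823), the member with the lowest unadjusted p there (0.0556).

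FGFR1 cells had the lowest CBR1 of the populations. Their wells were at 127, 108 and 96.9 CPM and the HcRed wells at 135, 170 and 143 CPM, which do not overlap, and every FGFR1 well lay below every HcRed well in 7.1% of all genes. The log2 fold change was -0.45 (95% interval -0.71 to -0.18, limma-voom adjusted p = 0.0769, and 0.0505 to 0.527 over 14 alternatives). By limma-voom 0 of 8 members were called and 1 had an unadjusted p under 0.05, edgeR called 0 and DESeq2 0 of 1, where 0.914% of all genes were called. PIK3CA cells had CBR1 at 123, 79.9 and 150 CPM, a value of -0.34 against HcRed (-0.59 to -0.10, limma-voom adjusted p = 0.0833). There too 0 of 8 members were called, 1 had an unadjusted p under 0.05, and edgeR called 0 and DESeq2 0 of 1, where 5.4% of all genes were called. Its low well decided much of this value, which was -0.08 without PIK3CA well 2 (adjusted p = 0.808), -0.53 without well 3 (adjusted p = 0.00371) and -0.41 without HcRed well 1 (adjusted p = 0.0409). POR was below every HcRed well in PIK3CA cells, as were 13.3% of all genes, with a value of -0.41 (-1.22 to 0.39). In NRG1 cells CBR1 was at 116, 132 and 133 CPM, below every HcRed well, as were 12.4% of all genes, with a value of -0.16 (-0.36 to 0.03). Among NRG1 cells 0 of 8 members were called and 0 had an unadjusted p under 0.05, and edgeR called 0 and DESeq2 0 of 1, where 3.08% of all genes were called.

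Among the knockouts, CDKN2A cells had the only member that passed. CBR3 was at 1.12, 2.88 and 0.636 CPM (2, 4 and 1 UMIs) in CDKN2A cells and at 5.04, 5.82 and 2.93 CPM (6, 7 and 4 UMIs) in GFP cells. The groups do not overlap, though by a narrow gap, and every CDKN2A well lay below every GFP well in 12.4% of all genes. The log2 fold change was -1.66 (SE 0.619, 95% interval -2.89 to -0.44, limma-voom adjusted p = 0.0476). It rested on 7 against 17 UMIs and passed in 3 of 12 alternatives, with adjusted p from 0.0336 to 0.243. It was lost by edgeR (adjusted p = 0.0557), without any 1 of the CDKN2A wells 1, 2 and 3 (adjusted p = 0.135, 0.0578 and 0.177), without GFP well 1 or 2 (adjusted p = 0.125 and 0.154), and against HcRed (-1.18, adjusted p = 0.243). In this comparison 1 of 7 tested members was called, where 17.9% of all genes were called.

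ABCC4 was also low in CDKN2A cells, at 0.558, 2.88 and 0.636 CPM against 4.20, 3.32 and 2.93 CPM in GFP cells (-1.61, 95% interval -2.94 to -0.28, limma-voom adjusted p = 0.085). The wells did not overlap, again by a narrow gap and as in 12.4% of all genes, and the value rested on 6 against 13 UMIs. POR was at 2.23, 3.6 and 4.45 CPM against 4.20, 4.98 and 9.53 CPM, with overlap (-0.95, -1.88 to -0.02, adjusted p = 0.16). CBR1 did not share the direction of CBR3 there, at 0.04 (-0.23 to 0.30).

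FAT1 cells had low UGDH and ABCC3, though neither passed. UGDH was at 5.71, 6.80 and 5.40 CPM in FAT1 cells and at 14.3, 10.8 and 10.3 CPM in GFP cells (-0.86, 95% interval -1.54 to -0.19, limma-voom adjusted p = 0.0786). ABCC3 was at 1.27, 1.13 and 0 CPM against 1.68, 4.98 and 3.66 CPM (-1.76, -3.27 to -0.26, adjusted p = 0.115). Neither gene overlapped between the groups, and every FAT1 well lay below every GFP well in 17.2% of all genes. By limma-voom 0 of 8 members were called and 2 had an unadjusted p under 0.05, and edgeR called 0 and DESeq2 0 of 2, where 14.1% of all genes were called. In FAT1 cells ABCC3 was at 2.87, 3.43 and 4.75 CPM under CSC, above every DMSO well of these cells, as were 7.26% of all genes (1.98, 0.61 to 3.34, adjusted p = 0.231), and a difference of the ABCC3 response to CSC between populations did not pass either (F = 2.72, limma-voom adjusted p = 0.837).

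Between the 2 control populations no member passed the test. Between GFP and HcRed cells 0 of 7 tested members were called, 0 had an unadjusted p under 0.05, edgeR called 0 and DESeq2 0 of 2, where 10.8% of all genes were called. CBR1 was at -0.13 (95% interval -0.33 to 0.08). The CBR3 value was 0.48 (-0.53 to 1.49) and that of ABCC3 0.39 (-0.81 to 1.59).

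No member lay above every control well in any of these comparisons under DMSO. Over all genes this held for 6.56% of genes in NRF2 cells, 7.39% in FGFR1, 5.94% in NRG1, 7.88% in PIK3CA, 11.9% in FAT1 and 21.6% in CDKN2A cells, and for 10.4% in GFP against HcRed cells. No member lay below every control well in NRF2 cells or in GFP against HcRed cells, where 13.5% and 15.9% of all genes did.

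**Figure D4:**
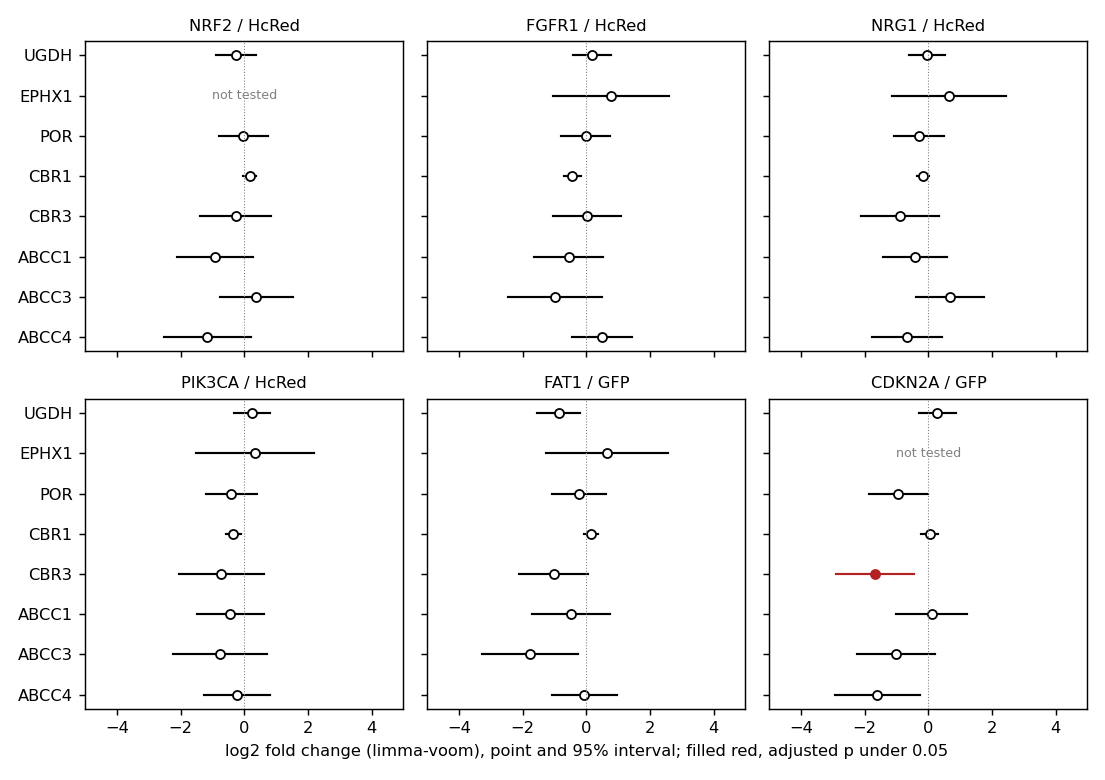
Log2 fold change (horizontal axis) of the 8 members other than UGT1A6 for 6 constructs against their control under DMSO, 3 wells against 3. Points are estimates, lines 95% intervals, and filled red marks an adjusted p under 0.05. EPHX1 was not tested in the NRF2 and CDKN2A panels and is marked so there. CBR3 in CDKN2A cells, at -1.66, is the only filled point, with an interval from -2.89 to -0.44.

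The genes whose pattern was most like each member were taken from the mean log2(CPM + 1) of the 31 groups, over 5016 genes with a mean of at least 10 CPM. The points share wells, depth and plate position, and the values are descriptions. ABCC1 was most like ACACA (Pearson r = 0.821), UGDH most like FHL2, DPF2 and METAP1 (0.798, 0.775 and 0.761), and ABCC4 most like KIF5B, DSG2 and NFIB (0.771, 0.759 and 0.739). CBR1 was most like WDR20, ITPA and NAGK (0.704, 0.659 and 0.656). For the sparser ABCC3, EPHX1, CBR3, UGT1A6 and POR the highest values were 0.655, 0.664, 0.637, 0.596 and 0.526. Of the members only CBR1 and UGDH, with means of 144 and 10.7 CPM, were among the genes compared, so no other member could appear as a nearest gene. Neither was among the 3 nearest genes of another member.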

How the data were processed

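Each deposited file held UMI counts of all genes in 1 well, as the authors received them from the quantification of their reads. Their notes name BWA 0.7.10 and hg19, with alignment to RefSeq transcripts, and each UMI was counted once per gene and well. Counts were not normalized before deposit. Groups came from the sample titles. The 13 wells with 2-digit replicate numbers were left out of the main tests. The study calls its wells biological replicates without saying whether they were separate cultures, so that p-values measure the spread between wells, which may be partly technical. Genes with a mean count above 1 in the wells compared were fitted in R 4.3.3 with limma 3.58.1 (voom weights, TMM factors of edgeR 4.0.16), all tests two-sided, with Benjamini-Hochberg adjustment over all genes tested and a threshold of 0.05. Chemical effects had population as a covariate and needed 3 wells of both conditions. F tests compared weighted residual sums of squares. edgeR quasi-likelihood and DESeq2 1.42.0 were alternatives. The other alternatives were median-ratio scaling, no low-count filter, a replicate block, a single fit over all groups, leaving out wells or populations, adding the 2-digit wells, and another control. Scripts were tested on simulated counts. The members, the gene lists and the tests were chosen with earlier results of these data known. Genes named beyond the members were, per chemical, the up to 5 called genes of the lists with the largest change under CSC and BaP, 3 markers, and the genes most alike in pattern. Total counts per well, 692446 to 1895735, set the precision, and intervals on pooled counts are exact Poisson and cover counting error only.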

Additional observations from a re-analysis of the deposited data

Results flagged for a closer look

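The 13 wells with 2-digit replicate numbers, in 6 groups, entered the tests above only as an alternative. A group was singled out where all its wells lay above every DMSO well of the same population. This held for 9.64% of the pairs of gene and group with a mean count above 1 in the wells compared. Among 54 pairs of member and group, to which that filter was not applied, it was seen for 4 (7.41%), all under CSC. There it held for 15.2% of the genes past the filter in NRG1, 11.7% in FGFR1 and 5.46% in CDKN2A cells. UGDH averaged 20 CPM in FGFR1 cells (18.2 and 21.8, against 12.5 to 14.9 under DMSO) and 15.8 CPM in NRG1 cells (15.6 and 16, against 9.14 to 12.3). The 1-digit well of each of these groups, at 16.5 and 15.2 CPM, was also above the DMSO wells. POR averaged 7.45 CPM in CDKN2A cells (6.23 to 9.56 in 3 wells, against 2.23 to 4.45). CBR1 averaged 136 CPM in NRG1 cells (134 and 139, against 116 to 133), but the 1-digit well of that group was at 89.5 CPM, below every DMSO well. No test was made on these wells alone.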

How the results depend on the processing

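The number of members called changed in 34 of the alternatives tried over all comparisons and was the same in 227. It moved from 0 to 1 (CBR1) for BaP with edgeR and with all wells, and was 0 to 1 when a replicate was left out. It moved from 0 to 1 for NRF2 over DMSO, CSC and NNK together and against GFP. The same move was seen for PIK3CA without the filter and over DMSO, CSC and NNK together (0 to 1 with a well left out). For BaP against NNK it moved from 0 to 1 without NRG1 cells (0 to 1 with wells left out). It was 0 to 2 for the NNK responses by population with wells left out. For CDKN2A it moved from 1 to 0 without the filter, with edgeR, with a single fit over all groups and against HcRed (0 to 1 with a well left out). For the 8 populations it moved from 2 to 1 without the filter (1 with any replicate number left out), and for CSC against BaP from 1 to 0 without the filter, with a single fit and without NRF2, GFP or FAT1 cells (0 with any replicate number left out). The cause was not tested. No call reversed direction. DESeq2 gave no adjusted p to CBR3 in CDKN2A cells. With the replicate number as a block CBR1 under NNK was 0.30 (limma-voom adjusted p = 0.000808) and CBR3 in CDKN2A cells -1.6 (adjusted p = 0.0429), and the block changed no count of members called. Over all 258 pairs of same-numbered wells the mean r was 0.0045, from -0.366 to 0.216, with 14 above 0.1. Most pairs were of different populations. Between DMSO and another chemical, r ran from 0.0126 to 0.135 in FAT1 cells and from 0.00254 to 0.0742 in NRF2 cells. The other populations with such pairs had values of both signs. The mean therefore does not settle whether the numbers pair wells within a population. Leaving out the NRG1 well under NNK was chosen after seeing the data for the responses by population and for BaP against NNK. Low counts limited UGT1A6 and EPHX1 most, at 27 and 103 UMIs in all, and for UGT1A6 the shared 3′ end may have lowered the count.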

Other observations

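In the wells with 2-digit numbers, 3 pairs of member and group, taken without a filter, lay below every DMSO well of their population. So did 17.2% of the pairs of gene and group with a mean count above 1 in the wells compared. In the 3 groups named next the shares of genes past that filter were 13.8%, 18.2% and 11.8%. The 3 member pairs were ABCC4 in FGFR1 cells under CSC (2.57 CPM on average against 5.86 under DMSO) and in HcRed cells under BaP (1.87 against 3.67), and ABCC3 in NRG1 cells under CSC (2.75 against 4.01). Each rests on 4 to 8 UMIs. The 1-digit wells of these groups were at 1.94, 2.4 and 1.52 CPM, of which the HcRed well lay within the DMSO range.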
